A study of Mus musculus with 33 samples.

Results

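The transcripts of 9 regulators of photoreceptor fate were followed through the differentiation of mouse retinal progenitor cells in culture. The genes are Crx, Otx2, Nrl, Nr2e3, Thrb, Rorb, Prdm1, Samd7 and Esrrb, taken by symbol from 47729 genes with counts. The cells came from C57BL/6J retina at embryonic day 14, and strain, tissue and stage were shared by all 11 groups of 3 libraries. At day 0 the cells were untreated, cone primed with COCO protein, or rod primed with taurine and retinoic acid, and at days 5, 12, 21 and 35 they were under cone induction with COCO protein (the cone culture) or rod induction with taurine and retinoic acid (the rod culture). COCO, a secreted protein, blocks signals of the BMP, TGF-beta and Wnt families. How long each agent stayed in the medium, and whether the 3 replicates of a group came from separate embryos or cultures, is not given in the sources used here. The p-values below therefore measure only the spread between these libraries, which may be technical.

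In the developing retina, the homeodomain factor Otx2 commits postmitotic cells to the photoreceptor and bipolar lineages and switches on Crx, its relative, which drives the genes of the photoreceptor outer segment. Rorb acts upstream of Nrl, the leucine zipper protein that sets rod fate, and Nrl in turn activates Nr2e3, a nuclear receptor that keeps cone genes silent in rods. Prdm1 (Blimp1) holds young photoreceptors out of the bipolar fate. Thrb encodes the thyroid hormone receptor needed for cones that express M opsin, Samd7 is a repressor of the Polycomb type active in rods, and Esrrb is an orphan nuclear receptor of mature rods.

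Promoters are shown for Crx and for the genes of the rod program with the largest changes from day 0 to day 5 of the cone culture, Samd7, Nr2e3 and Nrl, because Crx acts on photoreceptor promoters through the core TAATCC. Each sequence runs 5′ to 3′ on the strand of the gene, from 250 bases before to 50 bases after the RefSeq start (GRCm38.p6), and capitals mark TAATCC on either strand, which reads GGATTA on the opposite one. The windows are chr7:15879906-15880205 on the minus strand for Crx, chr3:30746043-30746342 on the plus strand for Samd7, chr9:59950030-59950329 on the minus strand for Nr2e3 and chr14:55524203-55524502 on the minus strand for Nrl.
Crx: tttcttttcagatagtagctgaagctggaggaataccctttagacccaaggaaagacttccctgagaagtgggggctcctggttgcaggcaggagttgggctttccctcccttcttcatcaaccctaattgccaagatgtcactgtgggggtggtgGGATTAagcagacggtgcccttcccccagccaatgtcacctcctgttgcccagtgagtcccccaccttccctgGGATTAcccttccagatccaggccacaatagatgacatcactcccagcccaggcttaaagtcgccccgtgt
Samd7: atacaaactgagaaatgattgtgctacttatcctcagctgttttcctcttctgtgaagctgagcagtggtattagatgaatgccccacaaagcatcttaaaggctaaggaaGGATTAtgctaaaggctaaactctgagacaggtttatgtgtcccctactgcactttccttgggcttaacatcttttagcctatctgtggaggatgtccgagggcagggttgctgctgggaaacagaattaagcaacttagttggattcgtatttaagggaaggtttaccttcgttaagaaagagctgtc
Nr2e3: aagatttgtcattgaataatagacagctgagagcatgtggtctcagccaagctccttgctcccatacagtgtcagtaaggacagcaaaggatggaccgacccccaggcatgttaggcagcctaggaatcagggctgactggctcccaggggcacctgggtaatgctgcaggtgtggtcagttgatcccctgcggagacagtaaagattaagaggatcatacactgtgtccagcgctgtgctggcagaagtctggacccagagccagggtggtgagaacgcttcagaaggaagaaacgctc
Nrl: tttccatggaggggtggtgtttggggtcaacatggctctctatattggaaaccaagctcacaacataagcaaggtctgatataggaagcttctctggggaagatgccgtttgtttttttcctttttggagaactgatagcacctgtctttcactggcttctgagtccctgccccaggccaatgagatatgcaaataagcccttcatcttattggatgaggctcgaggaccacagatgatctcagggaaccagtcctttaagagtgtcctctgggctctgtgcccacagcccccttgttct
The Crx promoter held the core 2 times, with first bases at -94 and -21 from the start, and the Samd7 promoter held it once, at -139. Over all 32851 promoters of this length in the RefSeq table, 7.06% held it at least once and 0.359% at least 2 times. The windows of Nr2e3 and Nrl held no match, which says only that these letters are not in them. All 9 genes matched the table, with 15 promoters between them, and the core was also present in 1 of the promoters of Otx2, at -211, and 1 of Thrb, at -46. The motif AGGTCA, the core of nuclear receptor sites, was in 1 of the 15 promoters (Thrb) against 16.3% of all promoters, and TGCTGA, the core of the Maf response element read by Nrl, was in 3 (Otx2 and Rorb) against 19.5%.

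The smallest library held 7511837 gene counts, the largest 19166442 and the median one 12985662, and levels are given as CPM, counts relative to the TMM-scaled library size. Rod day 12 replicate 2 stood apart from its replicates. On the first principal component it lay at -11.92, against 35.3 and 57.5 for the other rod day 12 libraries, and its summed level of 12 rod genes (transducin, phosphodiesterase and channel subunits among them) was 1984 CPM against 46.0 and 112. Because the spread of all groups was estimated together, that library enters the error of every test, and results are given with and without it where it matters. Cone day 12 replicate 2 (34.6 on that component, against 61.0 and 69.3 for its replicates) was kept in the fits without the rod library. Of the markers of the labelled cell type, 12 of 12 progenitor genes had counts in every group (summed level 1566 to 1746 CPM in untreated cells). The same untreated libraries held Crx at 409 to 579 CPM, although Crx is known as a gene of cells that have left the cell cycle. In bulk RNA, fewer cells of a type and less transcript per cell cannot be told apart.

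Over the time course, Samd7 and Nr2e3 were called higher at day 5 of the cone culture than in cone primed cells. In the rod culture Samd7 at day 5 also lay above every rod primed library (142 to 234 against 65.8 to 121 CPM), which edgeR did not call. By day 35 all but Esrrb were called lower than in primed cells in the rod culture, and all but Esrrb and Nr2e3 in the cone culture. Nr2e3 went from a mean of 12.0 CPM in cone primed cells to 0.50 CPM at day 35, which was not called with all libraries. That fall was called in some fits that left out 1 library, as without rod day 12 replicate 2 (-4.49 on the log2 scale, edgeR adjusted p 0.0226). From day 5 to day 12 of the cone culture 8 of 9 were called lower by edgeR (Benjamini-Hochberg adjusted p under 0.05 over 18150 genes), where 18.6% of all tested genes were called lower and 43.2% were called in either direction. The median change of the 9 was -3.24 on the log2 scale, against 0.03 for all genes. By day 35, 7 of 9 were called lower than in primed cells in the cone culture (26.5% of all genes lower, 57.7% called) and 8 of 9 in the rod culture (26.2% lower, 55.6% called), with medians of -4.50 and -6.88 against 0.03 and 0.04. From day 0 to day 5, 2 of 9 were called in the cone culture (22.3% of all genes), both higher (12.2% of all genes higher), and 0 of 9 in the rod culture by edgeR and by DESeq2 (17.5% of all genes by edgeR), where 1 had an unadjusted p under 0.05 (31.7% of all genes) and voom called 3.

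Calls in the later steps of the rod culture depended on rod day 12 replicate 2. From day 5 to day 12 of the rod culture 3 of 9 were called lower (5.59% of all genes lower, 18.3% called), and 8 of 9 without rod day 12 replicate 2 (25.1% called). With all libraries DESeq2 called 4 (20.2% of all genes), voom 8 (38.3%) and edgeR on the libraries of those days alone 1 (5.04%). From day 12 to day 21, 7 of 9 were called lower in the rod culture (6.29% lower, 11.2% called), and 4 of 9 (Crx, Otx2, Rorb and Samd7) without that library (2.98% called). Over the same step DESeq2 called 7 (13.9% of all genes), voom 4 (32.5%) and edgeR on the libraries of those days alone 0. In the cone culture 0 of 9 were called by edgeR, DESeq2 or voom over those days (3.36% of all genes by edgeR), with 3 at an unadjusted p under 0.05 (18.2% of all genes). Without rod day 12 replicate 2 edgeR called 1 of 9 in that cone step (4.72% of all genes), Samd7 at -2.36 (adjusted p 0.0419). From day 21 to day 35, 0 of 9 were called by edgeR or DESeq2 in either culture (0.915% of all genes by edgeR in the cone culture and 1.54% in the rod culture), with 4 and 0 at an unadjusted p under 0.05 (13.3% and 15.4% of all genes), and voom called 2 in the cone culture. Whether the step from day 5 to day 12 differed between the cultures was not tested for itself.

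**Figure D1:**
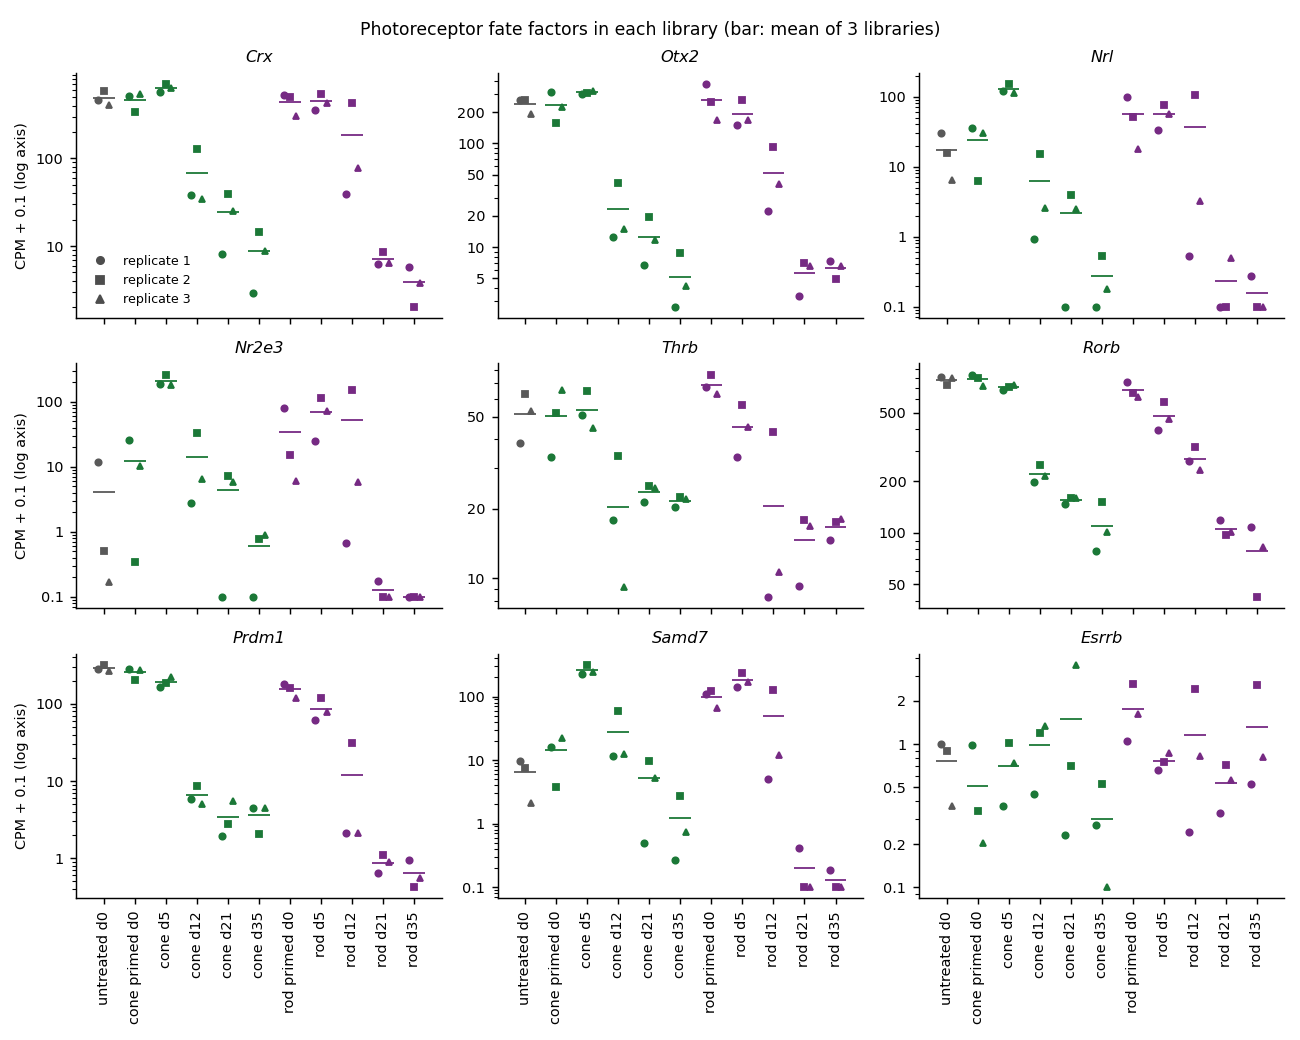
Level of each of the 9 genes in all 33 libraries, as CPM plus 0.1 on a log axis, with 1 point per library, its shape giving the replicate, and a bar at the mean of 3 libraries. Grey is untreated, green the cone culture and purple the rod culture; Crx goes from 577 to 698 CPM at day 5 of the cone culture to 2.82 to 14.4 CPM at day 35, and Esrrb stays under 4 CPM throughout.

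In untreated cells, per kilobase of exon, Crx was the most abundant of the 9 at 153 CPM per kilobase. Rorb (70.0), Otx2 (56.6) and Prdm1 (52.3) followed, in the same unit. Thrb stood at 6.94, Nrl at 3.03, Samd7 at 1.58, Nr2e3 at 1.19 and Esrrb at 0.11 CPM per kilobase. At day 5 of the cone culture the rod genes had moved into the upper range, with Samd7 at 65.5 and Nr2e3 at 62.1 CPM per kilobase beside Otx2 at 73.4 and Rorb at 63.5. By that day Prdm1 stood at 34.1 and Nrl at 22.4 CPM per kilobase.

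Crx (chr7:15865947-15879968, minus strand, GRCm38) and Otx2 (chr14:48657679-48667644, minus strand) had overlapping levels in untreated and primed cells and fell between days 5 and 12 of the cone culture and by day 21 of the rod culture. In replicate order, Crx stood at 463, 579 and 409 CPM in untreated cells, 513, 340 and 541 CPM in cone primed cells and 530, 495 and 301 CPM in rod primed cells, so the day 0 groups overlapped. At day 5 the cone culture held 577, 698 and 638 CPM and the rod culture 360, 545 and 432 CPM. The lowest cone library was above the highest rod library on that day, a difference of 0.52 ± 0.60 (SE) on the log2 scale that was not called in the fit to all libraries (edgeR adjusted p 0.67) and was called when those 6 libraries were fitted alone (adjusted p 0.0414).

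At day 12 Crx had dropped to 38.4, 129 and 34.4 CPM in the cone culture and to 38.8, 431 and 78.0 CPM in the rod culture. The cone culture fell by 3.24 ± 0.65 on the log2 scale (edgeR adjusted p 0.000237). In the rod culture the change was -1.29 ± 0.60 (adjusted p 0.15), and without rod day 12 replicate 2 it was -2.93 (adjusted p 0.000385). From day 12 to day 21 the rod culture fell by 4.71 ± 0.72 (adjusted p 0.000325), and by 3.07 without replicate 2 (0.00298), while the cone change of -1.45 ± 0.63 was not called (0.21). At day 21 Crx stood at 8.00, 39.6 and 25.1 CPM in the cone culture and 6.18, 8.42 and 6.33 CPM in the rod culture, and at day 35 at 2.82, 14.4 and 8.72 CPM and 5.69, 1.94 and 3.68 CPM. From primed cells to day 35 the loss was -5.74 ± 0.75 in the cone culture (adjusted p 2.6e-07) and -6.88 ± 0.81 in the rod culture (adjusted p 5.74e-08).

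Otx2 followed the same course from a lower start. Its levels were 264, 261 and 192 CPM in untreated cells, 302, 307 and 321 CPM at day 5 of the cone culture and 150, 260 and 170 CPM at day 5 of the rod culture, where the cultures did not overlap. They were 12.5, 41.5 and 14.8 CPM at day 12 of the cone culture and 22.1, 92.5 and 40.0 CPM at day 12 of the rod culture. Both falls from day 5 were called, at -3.74 ± 0.50 in the cone culture (edgeR adjusted p 1.2e-06) and -1.91 ± 0.46 in the rod culture (adjusted p 0.00415). At day 35 Otx2 stood at 2.56, 8.58 and 4.12 CPM in the cone culture and 7.31, 4.77 and 6.39 CPM in the rod culture, which overlapped. Otx2 is also a gene of the pigment epithelium and of bipolar cells. The 10 pigment epithelium genes summed to 6.52 to 17.5 CPM in untreated cells and to 26.5 to 39.4 CPM at day 35 over both cultures, with Rpe65 and Tyr at 0 counts in the rod culture at day 35, and the 10 bipolar genes summed to 83.1 to 129 CPM and 108 to 186 CPM; their part in the Otx2 level was not tested. Otx2 shares 154 bases of exon with the antisense gene Otx2os1, which had 800 counts over all libraries, and whether counting used strand is not given in the sources used here.

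Rorb (chr19:18930605-19111196, minus strand) fell in steps and stayed abundant to the end, the highest of the 9 at day 35 per kilobase of exon in both cultures (9.91 CPM per kilobase in the cone culture and 7.02 in the rod culture). Untreated cells held 807, 724 and 795 CPM and cone primed cells 836, 801 and 715 CPM. At day 5 it stood at 679, 706 and 727 CPM in the cone culture and 398, 576 and 463 CPM in the rod culture, with no overlap (0.56 ± 0.22, edgeR adjusted p 0.12). At day 12 it was 198, 248 and 215 CPM in the cone culture and 261, 315 and 231 CPM in the rod culture. That step was called in both, at -1.68 ± 0.22 in the cone culture (adjusted p 1.21e-06) and -0.83 ± 0.22 in the rod culture (adjusted p 0.00828). The rod call rested on single libraries, with an adjusted p of 0.0638 without rod day 5 replicate 2 and 0.0518 without rod day 12 replicate 3. At day 35, 78.3, 150 and 101 CPM were left in the cone culture and 108, 42.2 and 83.02 CPM in the rod culture. Averaged over days 5 to 35, Rorb was higher in the cone culture by 0.33 ± 0.11 (adjusted p 0.0243, and 0.0763 without cone day 35 replicate 2).

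Prdm1 (chr10:44437177-44528501, minus strand) was the 1 factor of the 9 called between the cultures on each of days 5, 12, 21 and 35 without rod day 12 replicate 2, with the cone culture higher on each day. Untreated cells held 287, 321 and 266 CPM and cone primed cells 281, 206 and 279 CPM. Rod primed cells held 183, 163 and 118 CPM, below every untreated library. That difference of -0.92 ± 0.51 was not called with all libraries (edgeR adjusted p 0.28) and was called without rod day 12 replicate 2 (adjusted p 0.0131). At day 5 the cone culture held 164, 186 and 221 CPM and the rod culture 62.5, 120 and 78.9 CPM, again without overlap. At day 12 the levels were 5.71, 8.62 and 4.95 CPM in the cone culture and 2.00, 31.3 and 2.02 CPM in the rod culture. The rod culture thus held the lowest libraries and also the highest, which was replicate 2.

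On later days Prdm1 was nearly spent in the rod culture. It stood at 1.84, 2.65 and 5.40 CPM in the cone culture and 0.54, 1.00 and 0.78 CPM in the rod culture at day 21. At day 35 it was 4.44, 1.97 and 4.36 CPM against 0.85, 0.32 and 0.45 CPM, again with no overlap. With all libraries the cone minus rod difference at day 5 was 1.12 ± 0.51 (edgeR adjusted p 0.19) and at day 12 it was -0.87 ± 0.60 (0.42). The day 21 value was 2.14 ± 0.88 (0.14) and that of day 35 was 2.74 ± 0.95 (0.0579). Averaged over days 5 to 35 it was 1.28 ± 0.38, which was called (adjusted p 0.0127). Without rod day 12 replicate 2 the day 12 value turned to 1.68, and each of these days was called, with adjusted p of 0.0027, 0.00877, 0.00209 and 0.000272 in order of day.

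Prdm1 is also expressed outside the retina, and the cone culture gained genes of other cells as Prdm1 reached its low late level. The 8 microglial genes summed to 48.2 to 269 CPM at day 35 in the cone culture and to 1.87 to 4.37 CPM in the rod culture, and the 9 mesenchymal genes to 1928 to 5070 CPM and 757 to 1504 CPM. Their part in the late Prdm1 difference was not tested.

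Among the rod genes, Samd7 (chr3:30746293-30767174, plus strand) was the 1 factor of the 9 that edgeR called between primed and untreated cells in the fit to all libraries. Untreated cells held 9.47, 7.47 and 2.04 CPM and cone primed cells 16.1, 3.72 and 22.5 CPM. Rod primed cells held 109, 121 and 65.8 CPM, all above every untreated and cone primed library. Against untreated cells this was a rise of 4.01 ± 0.92 on the log2 scale (edgeR adjusted p 0.00531), and 10.3% of all genes were called in that comparison. There voom called 3 of the 9 (20.8% of all genes) and edgeR on the libraries of those groups alone 2 (15.9%). Cone primed cells stood 2.82 ± 0.86 below rod primed cells (adjusted p 0.0433, with 7.27% of all genes called). This last call was lost without any 1 of the 6 libraries compared (adjusted p up to 0.144), by DESeq2 (0.0693), by limma on the deposited TPM (0.121 and 0.266) and with scaling by total counts only (0.05995), and narrowly without 7 libraries of later days (0.0503 to 0.0512). It was kept without rod day 12 replicate 2 (0.00476). Between cone primed and untreated cells 0 of 9 factors were called by edgeR, with 0.0% of all genes called and 0 of 9 at an unadjusted p under 0.05 (1.1% of all genes); DESeq2 and voom also called 0 in that comparison.

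Nr2e3 (chr9:59942771-59960659, minus strand) and Nrl (chr14:55518978-55524981, minus strand) were uneven between the libraries of day 0. Nr2e3 stood at 11.5, 0.40 and 0.068 CPM in untreated cells, 25.5, 0.24 and 10.2 CPM in cone primed cells and 80.6, 14.8 and 6.02 CPM in rod primed cells. Nrl stood at 29.9, 15.5 and 6.38 CPM, 35.9, 6.14 and 29.9 CPM, and 97.8, 51.4 and 17.8 CPM in the same order. The rod primed libraries reached the highest values of both genes but overlapped the untreated ones. The differences of 3.35 ± 1.51 for Nr2e3 (edgeR adjusted p 0.17) and 1.71 ± 1.02 for Nrl (adjusted p 0.32) were not called.

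Each of these 3 rod genes had its highest group mean at day 5 of the cone culture. Nr2e3 reached 187, 261 and 180 CPM in the cone culture and 24.4, 112 and 70.6 CPM in the rod culture. Nrl reached 120, 150 and 113 CPM in the cone culture and 33.6, 76.2 and 56.5 CPM in the rod culture. Samd7 reached 230, 316 and 240 CPM in the cone culture and 142, 234 and 172 CPM in the rod culture. The cultures did not overlap in Nr2e3 and Nrl and overlapped in Samd7. From primed cells to day 5 of the cone culture Samd7 rose by 4.24 ± 0.90 (edgeR adjusted p 0.00129) and Nr2e3 by 4.18 ± 1.41 (adjusted p 0.0342, and 0.0511 to 0.132 without any single cone library of day 5 or cone primed replicates 2 or 3, and not called by DESeq2). The change in Nrl was 2.43 ± 1.02 (adjusted p 0.0871, and 0.0136 without rod day 12 replicate 2).

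Day 12 split the libraries of both cultures. In the cone culture Nr2e3 stood at 2.68, 33.1 and 6.34 CPM, Nrl at 0.82, 15.1 and 2.47 CPM and Samd7 at 11.3, 58.6 and 12.4 CPM. In the rod culture Nr2e3 stood at 0.57, 153 and 5.62 CPM, Nrl at 0.43, 105 and 3.10 CPM and Samd7 at 4.93, 129 and 11.8 CPM. Replicate 2 was the highest in either culture, and in the rod culture its Nr2e3 and Nrl were above every rod library of day 5. In the cone culture each fall from day 5 was called (Nr2e3 -3.87 ± 1.37, edgeR adjusted p 0.0246; Nrl -4.33 ± 1.13, adjusted p 0.00289; Samd7 -3.24 ± 0.84, adjusted p 0.0028). The Nr2e3 call was lost without cone day 12 replicate 1 (adjusted p 0.0867) or 3 (0.0865). In the rod culture none of these was called by edgeR or DESeq2 with all libraries, while voom, which weights down libraries that stand apart, called all 3. Without replicate 2 edgeR called all 3 (Nr2e3 -4.48, adjusted p 0.0237; Nrl -4.97, 0.000822; Samd7 -4.45, 0.000158).

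**Figure D2:**
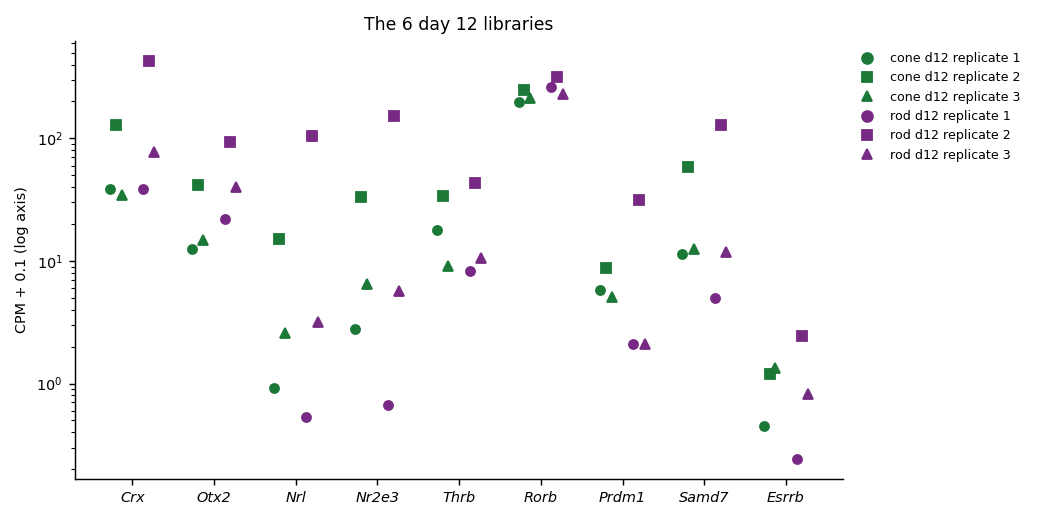
Level of the 9 genes in the 6 libraries of day 12, as CPM plus 0.1 on a log axis, with green for the cone culture, purple for the rod culture and the shape for the replicate. Rod day 12 replicate 2, the purple square, lies above both other rod libraries in all 9 genes, as for Nrl at 105 CPM against 0.43 and 3.10 CPM.

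After day 12 the rod genes went to the limit of detection in the rod culture. At day 21 Samd7 stood at 0.39, 9.67 and 5.18 CPM in the cone culture and had 4, 0 and 0 counts in the rod culture, a difference of 5.65 ± 1.79 (edgeR adjusted p 0.0469, with 9.0% of all genes called). That call rested on single libraries: it was lost without cone day 21 replicate 2 (0.171) or 3 (0.0822), without rod day 21 replicate 1 (0.0832), 2 (0.142) or 3 (0.155), and narrowly without many libraries of other days (up to 0.0598). Without rod day 12 replicate 2 its edgeR adjusted p was 0.00924. Nr2e3 had 0, 82 and 78 counts in the cone culture and 1, 0 and 0 in the rod culture on that day. The ratio of its summed counts, scaled to library size, was 201 with an exact 95% counting interval of 35.6 to 7992, and the test over libraries did not call it (adjusted p 0.21). Without rod day 21 replicate 1, the library with that 1 count, the cone culture was at least 46.0-fold higher. Nrl had 0, 44 and 32 counts in the cone culture and 0, 0 and 6 in the rod culture.

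At day 35 Nr2e3 had 0, 8 and 10 counts in the cone culture and none in the rod culture, where 3 counts over the group is the limit that a count of 0 allows. It was at least 6.65-fold higher in the cone culture by that limit, and at least 4.05-fold without rod day 35 replicate 3. Rod day 35 was at least 375-fold below rod primed cells, a limit that rests on rod primed replicate 1 with 594 of the 808 counts; without it the limit was 134-fold. Samd7 had 2, 30 and 8 counts in the cone culture and 1, 0 and 0 in the rod culture, a ratio of 44.3 (interval 7.51 to 1794), and of 16.4 without cone day 35 replicate 2. Nrl had 0, 5 and 1 counts in the cone culture and 2, 0 and 0 in the rod culture, a ratio of 3.32 whose interval of 0.59 to 33.7 includes 1. None of these was called by edgeR at day 35. The labels name no molecular identifiers, so the intervals and limits cover counting error only. Against rod primed cells the loss of Nrl in the rod culture was 996-fold (interval 275 to 8230) and that of Samd7 3814-fold (interval 684 to 150703), with edgeR adjusted p of 0.000117 and 2.65e-06. Without rod day 35 replicate 1, which held all the rod counts of that day, these losses were at least 467-fold and at least 894-fold.

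Thrb (chr14:17660960-18038088, plus strand), the cone gene of the set, had nearly the same range in cone primed and untreated cells and kept more of its level than the rod genes. Untreated cells held 38.4, 62.8 and 53.0 CPM, cone primed cells 33.5, 51.9 and 65.1 CPM and rod primed cells 67.3, 76.1 and 62.7 CPM. At day 5 it stood at 50.6, 64.4 and 44.4 CPM in the cone culture and 33.5, 56.3 and 45.2 CPM in the rod culture, which overlapped. Day 12 levels were 17.7, 33.8 and 9.05 CPM in the cone culture and 8.21, 42.8 and 10.5 CPM in the rod culture. The step from day 5 was -1.39 ± 0.43 in the cone culture (edgeR adjusted p 0.00958, and 0.0604 without cone day 12 replicate 3). In the rod culture it was -1.13 ± 0.42 (adjusted p 0.0623), and -2.27 (adjusted p 6e-05) without rod day 12 replicate 2. At day 21 it stood at 21.3, 25.1 and 24.5 CPM in the cone culture and 9.19, 17.8 and 16.7 CPM in the rod culture. Day 35 was similar, at 20.2, 22.3 and 22.0 CPM and 14.5, 17.4 and 17.9 CPM. The cone libraries were all above the rod libraries on both days, at day 35 by 0.37 ± 0.43, which was not called (edgeR adjusted p 0.65). Over days 5 to 35 the mean difference of 0.32 ± 0.21 was not called (adjusted p 0.29) but was without rod day 12 replicate 2 (0.60, adjusted p 0.00518). The fall from primed cells to day 35 was called in both cultures, at -1.22 ± 0.42 in the cone culture (adjusted p 0.0158, and 0.0764 without cone primed replicate 3) and -2.05 ± 0.43 in the rod culture (adjusted p 0.000254). A list of 11 cone genes summed to 259 to 461 CPM in cone primed cells and 5.55 to 35.6 CPM at day 35 of the cone culture. In the rod culture the same sums were 184 to 295 CPM and 5.90 to 14.1 CPM. Counts were per gene, so transcript forms of Thrb were not told apart.

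Esrrb (chr12:86361117-86521628, plus strand) was near the limit of detection in every group. Its counts were 7, 12 and 4 in untreated cells, 4, 15 and 11 at day 5 of the cone culture and 5, 9 and 11 at day 5 of the rod culture. The highest library, cone day 21 replicate 3, had 47 counts (3.48 CPM), beside 1 and 7 in its replicates. At day 35 it had 2, 5 and 0 counts in the cone culture and 5, 31 and 11 in the rod culture. No comparison of Esrrb passed the test by edgeR; cone primed libraries lay below rod primed ones without overlap (-2.11 ± 0.98, adjusted p 0.22).

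The direct comparison of the cultures asked how far these factors differed under cone and rod conditions. At day 5, 6 of 9 factors (Crx, Otx2, Nrl, Nr2e3, Rorb and Prdm1) had no overlap between the cultures and all 6 were higher in the cone culture, where 32.8% of all genes had no overlap. By edgeR and by DESeq2 0 of 9 were called on that day (9.28% of all genes by edgeR), and 2 (Rorb and Prdm1) had an unadjusted p under 0.05 (22.7% of all genes). Fitted on the 6 day 5 libraries alone, these 6 factors were called, as were 15.6% of all genes, and voom called 5 of the 9 and 18.6% of all genes. At day 12, 0 of 9 were called by edgeR and DESeq2 (10.1% of all genes by edgeR), and 3 (Crx, Otx2 and Nrl) had an unadjusted p under 0.05 (22.8% of all genes). These 3 were lower in the cone culture, at -1.44, -1.16 and -2.51. The values without rod day 12 replicate 2 were 0.21, -0.42 and 1.85, so Crx and Nrl changed sign. Without cone day 12 replicate 2 all 3 were called lower in the cone culture, at -2.32, -1.90 and -4.36 (edgeR adjusted p 0.0313, 0.0165 and 0.0485). They were also called lower there without rod day 12 replicate 1 (0.0226, 0.0236 and 0.0284), so the result depended on the library left out. The 1 factor that voom called on that day was Prdm1, higher in the cone culture by 1.48.

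At day 21, 1 of 9 was called by edgeR (Samd7), against 9.0% of all genes, and 3 of 9 without rod day 12 replicate 2 (11.4% of all genes). With all libraries 6 had an unadjusted p under 0.05 (22.5% of all genes), all higher in the cone culture, and DESeq2 and voom called 3 each (11.1% and 20.4% of all genes). At day 35, 0 of 9 were called by edgeR (12.3% of all genes), with 3 (Rorb, Prdm1 and Esrrb) at an unadjusted p under 0.05 (24.6%), while DESeq2 called 2 and voom 0. The libraries of the cultures did not overlap in 4 of 9 at day 21 (24.7% of all genes) and 3 of 9 at day 35 (27.9%). Averaged from day 5 to 35, 3 of 9 were called, all higher in the cone culture (15.6% of all genes higher, 27.8% called): Prdm1, Rorb and Samd7, the last at 2.59 ± 0.92 (edgeR adjusted p 0.0366, 2.71 with the few-count day at its ratio). The Samd7 call was lost without any 1 of 8 libraries, replicate 2 of the cone culture at days 12, 21 and 35, rod day 21 replicates 2 and 3 and the 3 rod libraries of day 35, with an adjusted p of 0.0595 to 0.18. Without rod day 12 replicate 2, 6 of 9 were called over those days, against 31.0% of all genes. The added ones were Crx (0.94, edgeR adjusted p 0.0072), Nr2e3 (4.13, 0.0482) and Thrb. That fit kept cone day 12 replicate 2, the highest cone library of that day in Crx, Nr2e3 and Thrb. Leaving out the high library of the rod culture alone moves the mean toward the cone culture, and this mean was not fitted without both.

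**Figure D3:**
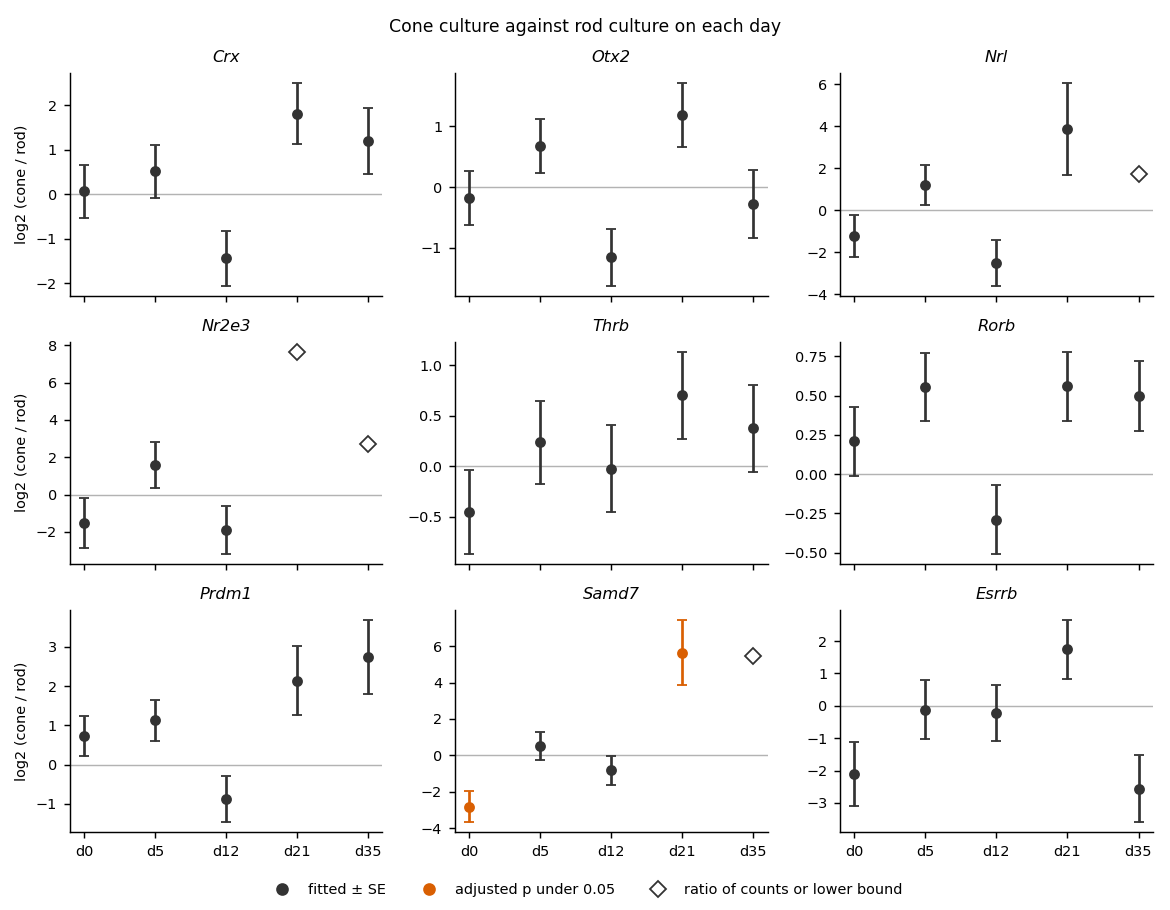
Cone minus rod difference of each gene on the log2 scale at days 0, 5, 12, 21 and 35, with bars of 1 SE, orange for an adjusted p under 0.05 by edgeR and open diamonds for a ratio of counts or a bound where a group had 3 counts or fewer. Samd7 goes from -2.82 at day 0 to 5.65 at day 21, and the day 12 points of all 9 genes sit below 0 with all libraries included, while without rod day 12 replicate 2 (not drawn) 7 of the 9 were above 0.

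Samd7 was also the only one of the 9 whose cone minus rod difference changed with day by an F test on 4 degrees of freedom (edgeR adjusted p 0.0216, and 0.00129 without rod day 12 replicate 2), while DESeq2 called 4 of 9 and voom 6. In the edgeR test 9.22% of all genes were called, and 7 of 9 factors had an unadjusted p under 0.05, as had 26.1% of all genes. Its sign went from higher in rod cells at day 0, through overlap at days 5 and 12, to higher in the cone culture at days 21 and 35. For the change from day 0 to day 35 alone, 0 of 9 differed between the cultures by edgeR (5.66% of all genes called), with 1, Samd7, at an unadjusted p under 0.05 (20.4% of all genes), and DESeq2 called that 1.

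To set the rod genes against the photoreceptor lineage as a whole, counts were divided by the Crx count of the same library, a ratio chosen after the levels were seen. Samd7 stood at 0.0204, 0.0129 and 0.00498 counts per Crx count in untreated cells, and at 0.206, 0.244 and 0.218 in rod primed cells. At day 5 the cultures met, at a mean of 0.409 in the cone culture and 0.407 in the rod culture, and overlapped (exact permutation test, 2-sided p = 0.8). The ratio of Nr2e3 was 0.325, 0.373 and 0.282 in the cone culture and 0.0678, 0.205 and 0.163 in the rod culture. Nrl stood at means of 0.1997 and 0.121 and Prdm1 at 0.299 and 0.192, both without overlap and higher in the cone culture. With 3 libraries against 3 the exact permutation p of these 3 genes was 0.1, the smallest this design allows, before adjustment over the 56 ratios compared. Thrb went the other way, with 0.0832 counts per Crx count in the cone culture and 0.1003 in the rod culture and no overlap, and Otx2 and Rorb overlapped.

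**Figure D4:**
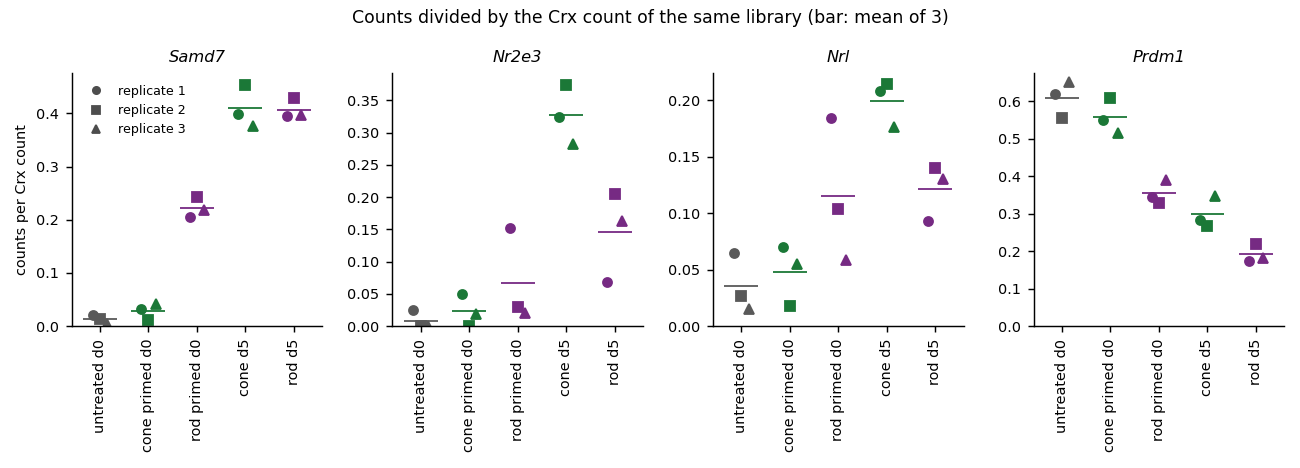
Counts of Samd7, Nr2e3, Nrl and Prdm1 per Crx count of the same library at days 0 and 5, on linear axes from 0, with 1 point per library and a bar at the mean of 3. The cultures coincide at day 5 for Samd7 (0.409 and 0.407) and are apart for Nr2e3, Nrl and Prdm1, while Prdm1 per Crx is already lower in rod primed cells than in untreated cells (0.355 against 0.609).

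Target genes of these factors were followed through lists of rod, cone and shared photoreceptor genes. From primed cells to day 5 of the cone culture 9 of 12 rod genes were called higher and 0 lower, with a median of 3.61 against 0.05 for all genes, of which 12.2% were called higher. Among shared photoreceptor genes 7 of 14 were called higher and 0 lower, and among cone genes 0 of 9 higher and 2 lower. Cnga1, a subunit of the rod cyclic nucleotide-gated channel, went from 0 to 0.31 CPM in cone primed cells to 12.8 to 66.9 CPM at day 5 of the cone culture (7.79 ± 1.76, edgeR adjusted p 0.00227). Gnat1, the rod transducin subunit, rose by 7.08 ± 1.71 (adjusted p 0.00373), and Gnat2, the cone transducin subunit, fell by 1.71 ± 0.50 (adjusted p 0.0158).

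Over the same days of the rod culture 2 of 12 rod genes were called higher and 0 lower, with a median of 1.31, where 17.5% of all genes were called in either direction. Without rod day 12 replicate 2 that count was 4 of 12 (19.6% of all genes), and between the cultures at day 5 itself 0 of 12 were called by edgeR. The rod step began higher: the 12 rod genes summed to 111 to 462 CPM in rod primed cells and 44.8 to 152 CPM in cone primed cells. At day 5 the sums overlapped, at 305 to 803 CPM in the rod culture and 635 to 1740 CPM in the cone culture. Whether the 2 steps differed was not tested. At day 5 cone opsin Opn1sw ranged over 5.96 to 18.7 CPM in the cone culture and 0.34 to 1.43 CPM in the rod culture (3.51 ± 0.95, adjusted p 0.0184). Of 9 tested cone genes, 2 were called between the cultures on that day, both higher in the cone culture (9.28% of all genes called). At day 21, 3 of 12 rod genes and 6 of 14 shared genes were called higher in the cone culture and 0 lower (9.0% of all genes called). Without rod day 12 replicate 2 those counts were 9 and 11 (11.4% of all genes called).

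Regulators outside the 9 were counted from 2 further lists. Of 13 upstream neurogenic and precursor factors, 12 were called lower and 1 higher at day 35 than in primed cells, in the cone and in the rod culture alike, with medians of -2.83 and -5.51, where 26.5% and 26.2% of all genes were called lower. Foxn4, a progenitor factor for amacrine and horizontal cells, went from a mean of 15.3 CPM in cone primed cells and 25.0 CPM in rod primed cells to 0 counts in both cultures. Of 12 other photoreceptor regulators, 9 were called lower in each culture over that span, with 1 called higher in the cone culture and 2 in the rod culture. Samd11, the partner of Samd7, fell by 5.07 ± 1.23 in the cone culture (edgeR adjusted p 0.0009) and 9.02 ± 1.53 in the rod culture. Tbx2, a T-box factor, differed between the cultures in the other direction. It was higher in the rod culture at day 5, at a mean of 247 ± 48.3 CPM (SD, n = 3) against 51.5 ± 8.66 CPM (-2.26 ± 0.26 for cone minus rod, edgeR adjusted p 1.92e-06).

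**Figure D5:**
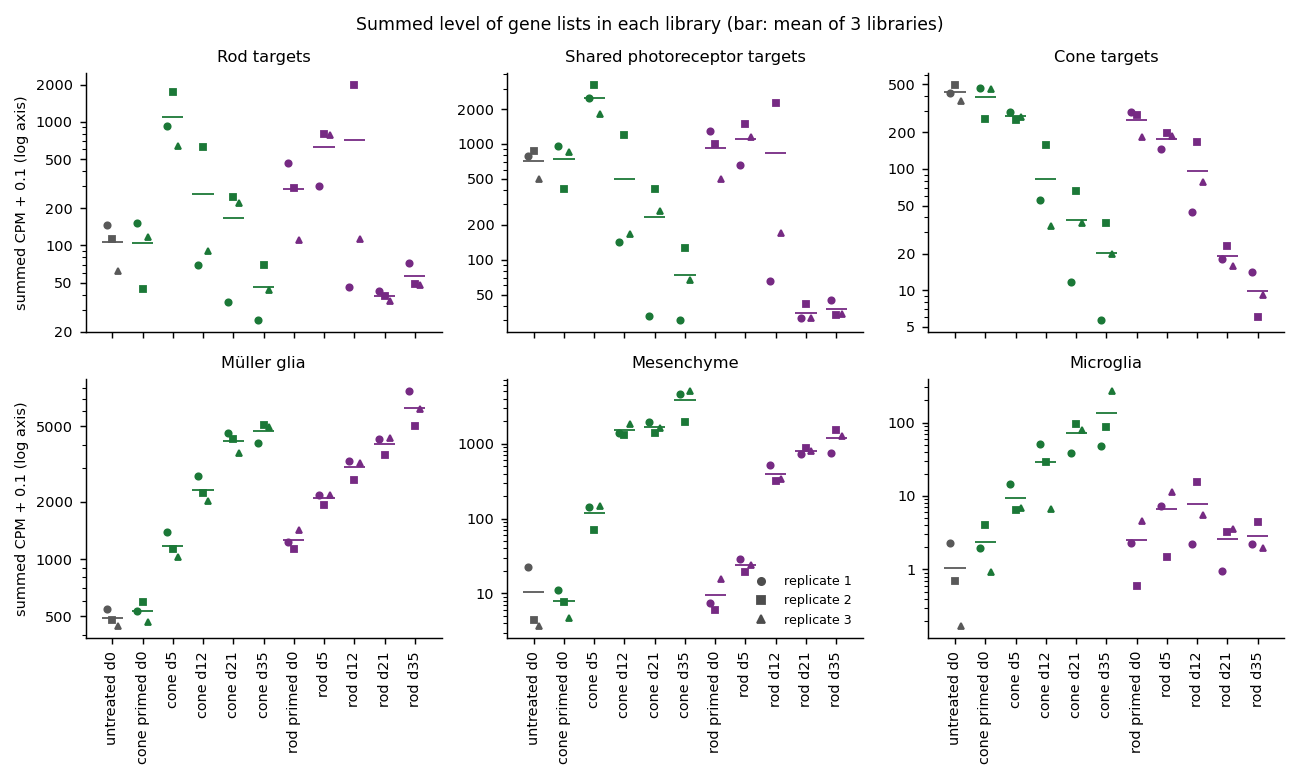
Summed level of 6 gene lists in each of the 33 libraries, as CPM plus 0.1 on a log axis, with 1 point per library and a bar at the mean of 3. Rod and shared photoreceptor genes have their highest group means at day 5 of the cone culture (635 to 1740 CPM and 1822 to 3227 CPM), with rod day 12 replicate 2 above its replicates, and Müller glia and mesenchyme genes rise to day 35 in both cultures, while microglial genes rise in the cone culture.

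Genes of other cell types moved with the loss of the fate factors. The 8 Müller glia genes summed to 441 to 546 CPM in untreated cells and 4097 to 7682 CPM at day 35 over both cultures, and the 9 mesenchymal genes to 3.53 to 22.8 CPM and 757 to 5070 CPM. All 9 mesenchymal genes were called higher at day 35 than in primed cells in each culture by edgeR. So were 7 of 7 tested microglial genes in the cone culture, against 0 of 7 in the rod culture. Over that span 57.7% of all genes were called in the cone culture and 55.6% in the rod culture, in either direction. Of 8 ganglion cell genes, 6 were called lower in each culture, with 1 called higher in the cone culture and 2 in the rod culture. Of 10 amacrine and horizontal cell genes, 7 were called lower in the cone culture and 9 in the rod culture, with 1 called higher in each. Among all genes 26.5% and 26.2% were called lower in the cone and rod cultures. The part of these cells in the levels of the 9 factors was not tested.

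Across the 11 groups, the mean log2 CPM of Crx had Pearson correlations of 0.983 with Otx2, 0.985 with Rorb and 0.975 with Nrl. A correlation leaves out the size of a change. From cone primed cells to day 35 of the cone culture, mean Crx went from 464 to 8.65 CPM and mean Rorb from 784 to 110 CPM. Nr2e3 and Samd7 formed a closer pair with each other (0.981) than with Crx (0.807 and 0.873). The highest correlation of Esrrb with any of the others was 0.315. These correlations are over group means that share the time course and are given as a description. Of all other genes, those most like Samd7 were Sag, Rtbdn and Slc17a7 (0.989, 0.984 and 0.978), and those most like Nr2e3 were Pde6b, Cngb1 and Slc17a7 (0.976, 0.972 and 0.970). The nearest to Nrl were Ubap1l, Samd11 and Ano2 (0.992, 0.991 and 0.989), and the nearest to Crx were Kif21b, Srrm4 and Fam222a (0.997, 0.996 and 0.995). Prdm1 was nearest to Ntng2, Epha8 and Peli2 (0.993, 0.993 and 0.991).

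Ordered by mean level over the 11 groups, most neighbours of a factor overlapped in their libraries. Of the 10 pairs of neighbours, 3 did not overlap for Rorb and for Prdm1, 1 for Crx, Otx2, Nrl, Nr2e3, Thrb and Samd7, and 0 for Esrrb. The groups were ordered by the same levels, and such gaps were not counted over all genes. These counts are therefore a description only. For Nrl and Nr2e3 the gap lay between the cone culture at day 5 and the next group, rod primed cells (127 against 55.7 CPM) and the rod culture at day 5 (209 against 68.9 CPM). For Otx2, Thrb and Prdm1 a gap lay below the rod culture at day 5. A later gap for Prdm1 lay between the cone and the rod culture at day 21, at means of 3.30 and 0.78 CPM.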

How the data were processed

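RNA was extracted and made into libraries with Takara kits for low input, per the labels' protocols. The submitters' processing notes name HISAT2, StringTie, HTSeq and GRCm38, without versions. For each of 33 libraries the authors deposited raw counts per gene, which were the main data, a StringTie table with TPM, FPKM and coverage per gene, and 5 summary lines of reads counted in no gene. Of all counted reads, 26.9% to 34.9% fell in genes, and ribosomal and mitochondrial genes held 23.9% to 38.4% of the gene counts. The deposited FPKM and coverage (signal) were not used, and deposited TPM served as an alternative only, because 31 of the 177 values of the 9 genes with 100 or more counts were listed there at TPM 0.

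Counts were fitted with edgeR 4.0.16 (R 4.3.3): 11 groups of 3 in 1 fit, TMM scaling, filterByExpr at a minimum count of 10, quasi-likelihood tests and Benjamini-Hochberg adjustment over 18150 genes, called under 0.05. All 9 factors passed that filter. Log2 fold changes are given ± SE, computed as the absolute log2 fold change divided by the square root of the F statistic of its test. The spread shared by all genes (common BCV) was 0.213, and 3 counts in a library correspond to 0.174 to 0.407 CPM. Where a group had 1 to 3 counts in all, the ratio of summed counts with an exact 95% interval replaces the fitted fold, and where it had 0, the bound from 3 counts over the group. No 2 libraries held identical counts, and the labels name no batch. Overlapping genes are reported as uncertain: Nr2e3 shares 61 bases of exon with Gm15507, which had 10 counts.

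The 9 factors and the gene lists were chosen with earlier results of these data known. From a list, up to 3 called genes with the largest fold and no overlap between groups could be named, in the comparison described. The ratios to Crx were chosen after the levels were seen. Some genes are not reported here. The genes most like a factor are the 3 with the highest Pearson correlation over 11 group means, at a mean log2 CPM of at least 1. Alternatives were DESeq2 1.42.0, voom with quality weights (limma 3.58.1), other scalings and filters, TPM, fits to the compared groups alone, the replicate number as a block, and each of the 33 libraries left out. A fit without all day 12 libraries was added after the data were seen. The code was tested on simulated counts. Figures and tables used Python 3.11.15.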

Additional observations from a re-analysis of the deposited data

Results flagged for a closer look

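The difference in Samd7 between the cone and rod cultures changed with day, which was tested in itself by an F test over days 0, 5, 12, 21 and 35 (edgeR adjusted p 0.0216). Its cone minus rod value was -2.82 ± 0.86 at day 0 and 5.65 ± 1.79 at day 21, on the log2 scale with SE. The call held in each of the fits that left out 1 library. No group has more than 3 libraries, so outlying libraries were not tested for.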

How the results depend on the processing

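Of 8017 alternative values of the 9 genes over 45 settings, 7753 stayed called or stayed not called. Of the rest, 131 gained the call, 127 lost it and 6 reversed. Among the 7753, 171 values that were not called changed sign. The reversals were Prdm1 from primed cells to day 5 of the cone culture (0.96 with TPM and a pseudocount of 1, 1.51 with 0.1), Prdm1 between the cultures at day 12 (1.48 with voom, 1.68 without rod day 12 replicate 2, the other end of the range with 1 library left out being -1.42) and Samd7 over days 5 to 35 (-0.0312 and -0.22 with TPM). The cause was not tested.

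Factors called between primed and untreated cells numbered 1, against 3 with voom, 2 in a fit to the compared groups alone, 0 with TPM and a pseudocount of 1, and 2 without all day 12 libraries, a setting added after the data were seen. Calls between the cultures over days 0 to 35 numbered 2, against 0 with total counts only, 5 with DESeq2, 12 with voom, 13 in fits to the compared groups alone and 1 with TPM at either pseudocount. Over the mean of days 5 to 35 the 3 calls became 1 and 0 with TPM at pseudocounts of 1 and 0.1. Calls in steps of the rod culture numbered 10, against 5 in fits to the compared groups alone, and 0 and 1 with TPM. At day 35 against primed cells 15 calls became 7 and 8 with TPM. For the difference that changes with day, 1 call became 2 with no filter, 4 with DESeq2, 6 with voom and 0 with TPM at a pseudocount of 0.1. For the change to day 35, 0 calls became 1 with DESeq2, 2 in fits to the compared groups alone and 2 without day 12. Calls among the listed genes between the cultures numbered 151, against 14 and 9 with TPM.

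With each library left out in turn, the calls ranged from 1 to 2 for priming, 0 to 7 between the cultures by day, 1 to 6 over days 5 to 35, 8 to 12 in steps of the cone culture, 9 to 13 in steps of the rod culture, 14 to 16 at day 35, 1 to 5 for the difference that changes with day, 0 to 2 for the change to day 35 and 128 to 178 among the listed genes.

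The replicate numbers were not taken as pairs: in 0 of 17 comparisons did every same-numbered pair deviate together (r over 0.1 in 16 of 51 pairs, range -0.317 to 0.542). With the replicate number as a block, calls in steps of the rod culture numbered 13, those at day 35 numbered 16 and those among the listed genes 155. It gained 4 calls among the 9 genes and lost 0, and changed none of the other counts above.

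Low counts limit the late rod genes. At days 21 and 35 each rod group held 0 to 6 counts in all of Nrl, Nr2e3 and Samd7. The cone groups held 76 to 186 counts at day 21 and 6 to 40 at day 35. Esrrb had at most 47 counts in any library. The spread is limited by 3 libraries a group, and leaving out rod day 12 replicate 2 alone ended 3 calls and added 20 among 180 tests of the 9 genes.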
